A study of Homo sapiens with 6 samples.

Results

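Trefoil factors and mucins are the secreted peptides and heavily glycosylated proteins that make and anchor the mucus of the gut. The set examined here holds 10 human genes, named by symbol from the 58884 gene identifiers of the count table. They are the trefoil factors TFF1, TFF2 and TFF3, the gel-forming mucins MUC2 and MUC5AC, the membrane mucins MUC1, MUC13, MUC17 and MUC20, and the small mucin-like gene MUCL1. Each symbol matched 1 identifier. A low-count filter left 15804 genes for testing, 6 of the 10 members among them. TFF1, MUC2, MUC5AC and MUC17 fell under the filter and are described by their counts.

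Gene expression was measured in SW480, an established human colorectal cancer line, grown as liver metastases after injection into the portal circulation of NSG mice, an immunodeficient strain. The 3 control libraries came from cells with a control guide RNA (sgCtrl), and the other 3 from cells with a guide RNA against ITPR3 (sgITPR3), a calcium release channel of the endoplasmic reticulum. The labels do not say whether a line was 1 clone, how many guides were used, or whether each library came from its own animal. P-values therefore measure the spread between these samples only. Tumour cells had been separated from the dissociated livers on a density gradient and by depletion of mouse cells, and the RNA was sequenced as tags from transcript 3′ ends.

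Goblet cells of the intestine store the gel-forming mucin MUC2 and release it together with the trefoil peptide TFF3. The surface cells of the stomach pair MUC5AC with TFF1, and deeper gastric gland cells make TFF2. Trefoil peptides are short, held in a clover-leaf fold by disulphide bonds, and help epithelia close wounds. Membrane mucins such as MUC1, MUC13 and MUC17 instead stay anchored on the apical surface. All mucins carry O-linked sugars that are built in the Golgi, beginning with enzymes of the GALNT family.

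Totals lay between 19140055 and 23943797 counts per library, and 3 counts corresponded to 0.121 to 0.161 CPM, the count relative to the TMM-scaled size of its library. ITPR3 was at 107.5, 93.9 and 94.2 CPM in sgCtrl and 39.4, 41.03 and 46.2 CPM in sgITPR3. Of the libraries, 2 stand apart in ways that touch the members. In sgCtrl replicate 2, ALB, a hepatocyte transcript, was at 169.7 CPM against 33.8 and 21.6 CPM in the other sgCtrl libraries and 111.5 to 231.6 CPM in sgITPR3. In sgITPR3 replicate 2, 17 genes had at least 10 counts and no more than 2 in any other library, against 0 to 8 such genes in each of the other libraries. The results below are given with and without these libraries where that changes them.

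Of the 6 members tested, TFF2, TFF3, MUC13 and MUCL1 rose in sgITPR3, MUC1 and MUC20 did not pass, and none fell. Calls are adjusted p under 0.05 of edgeR's quasi-likelihood test over all genes. By the same rule 23.5% of all tested genes were called, 11.6% as higher and 11.9% as lower. Among the tested members, the same 4 had every sgITPR3 library above every sgCtrl library, which 19.6% of tested genes showed. The median log2 fold change of the 6 members was 2.09, against 0.00 for all genes tested. A gene can pass the filter through sgITPR3 alone. TFF3 did so (4, 7 and 1 counts in sgCtrl), and TFF2 largely so (2, 12 and 4 counts). The counts and the median over the tested members are therefore a description.

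**Figure D1:**
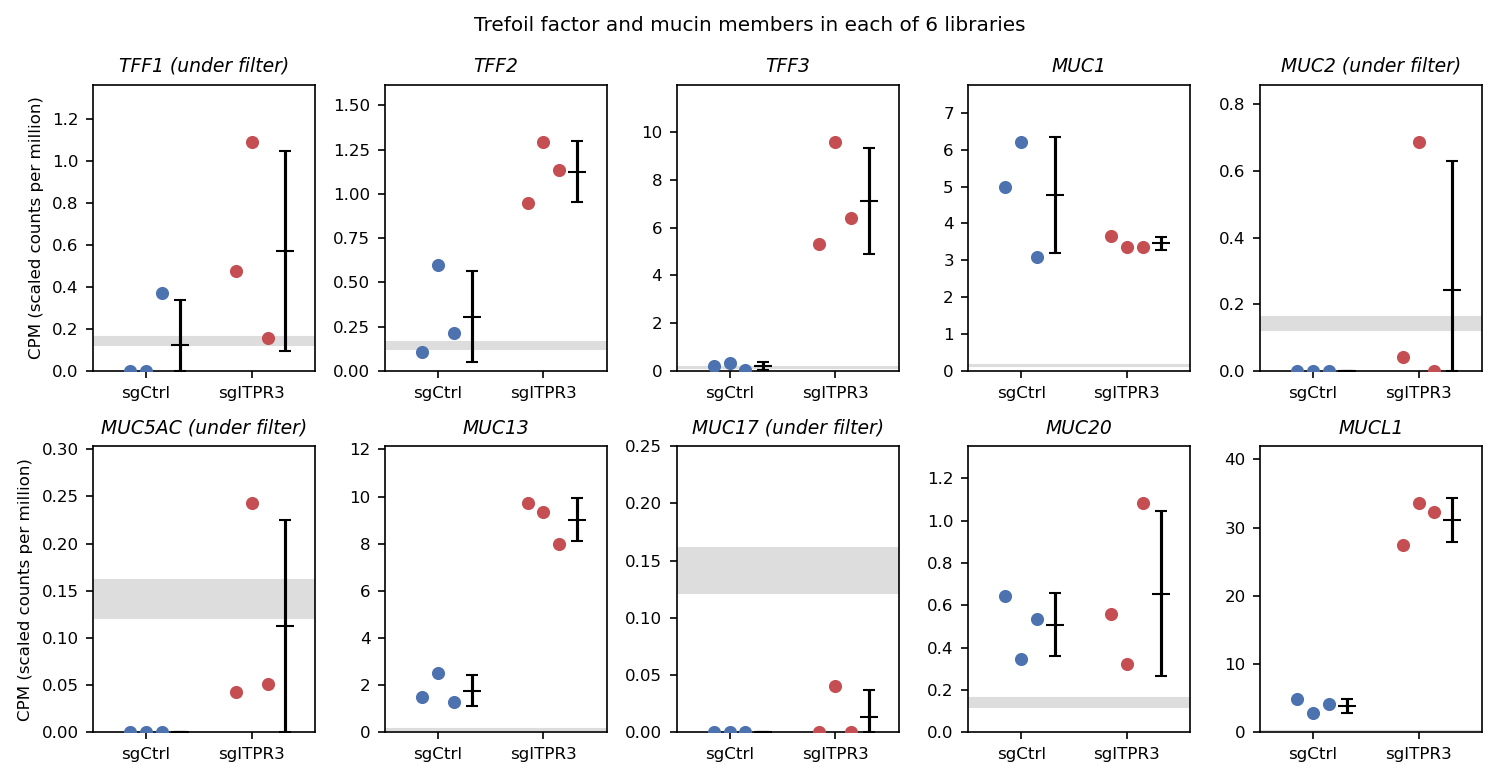
CPM of the 10 members (linear axes, one panel each) in the 3 sgCtrl (blue) and 3 sgITPR3 (red) libraries, shown from left to right as replicates 1 to 3, with mean and SD in black (the lower bar stops at 0) and the level of 3 counts as a grey band. TFF2, TFF3, MUC13 and MUCL1, and MUC5AC at no more than 6 counts, do not overlap between groups, TFF1, MUC1 and MUC20 do, and MUC2, MUC5AC and MUC17 are at 0 in every sgCtrl library.

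TFF3, the trefoil peptide of intestinal goblet cells, showed the largest change among the 6 members tested. In a fit without the low-count filter MUC2, at 0 in sgCtrl, had a larger fitted value (5.42 against 5.05 on the log2 scale), which rests mainly on sgITPR3 replicate 2. TFF3 was at 0.215, 0.348 and 0.0534 CPM in sgCtrl and at 5.31, 9.59 and 6.39 CPM in sgITPR3. In counts this was 12 over the 3 sgCtrl libraries and 484 over the 3 sgITPR3 libraries, so the sgCtrl level sat near the floor of 3 counts per library. The log2 fold change was 5.05 (SE 0.40, 95% interval 4.20 to 5.90, edgeR adjusted p = 5.50e-07), or 33.2-fold, and only 3 of the 15804 tested genes had a larger one. Every sgCtrl count of TFF3 was under the filter's minimum of 10. It passed the filter through sgITPR3, so this rank is a description. Leaving out 1 library at a time moved the log2 fold change between 4.62 and 5.67, and each of these fits kept the call. Counting error alone gives a ratio of summed levels of 34.4 with an exact 95% interval of 19.5 to 67.1. Such intervals cover counting error only.

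TFF2, a trefoil peptide of gastric glands, rose from a level near the floor. It was measured at 0.108, 0.597 and 0.214 CPM in sgCtrl (2, 12 and 4 counts) and at 0.950, 1.29 and 1.13 CPM in sgITPR3 (22, 32 and 22 counts). The sgCtrl library with the most TFF2 was replicate 2, the one with high ALB. The log2 fold change was 1.84 (SE 0.52, 95% interval 0.73 to 2.95, edgeR adjusted p = 0.0192). Its call was the least stable of the 4. The call ended without sgCtrl replicate 1 (edgeR adjusted p = 0.0771), sgCtrl replicate 3 (0.0718), sgITPR3 replicate 2 (0.0872) or sgITPR3 replicate 3 (0.0557), and with the ALB level as a covariate (log2 fold change 1.24, edgeR adjusted p = 0.194). With sgCtrl replicate 2 left out it was larger, at 2.76 (adjusted p = 0.00223, edgeR).

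TFF1, the trefoil peptide of the gastric surface, was not tested, and its groups overlapped. It had 0, 0 and 7 counts in sgCtrl and 11, 27 and 3 counts in sgITPR3. Its summed level was 5.0 times higher in sgITPR3 (exact 95% counting interval 2.22 to 13.2), and 2.70 times without sgITPR3 replicate 2, which held 65.9% of the sgITPR3 counts. An exact two-sided permutation test of the CPM gave p = 0.2, and the smallest p that 3 libraries against 3 can give is 0.1.

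The trefoil genes lie side by side on chromosome 21 of GRCh38, all on the minus strand: TFF3 from 42311667 to 42315651, TFF2 from 42346357 to 42351128 and TFF1 from 42362282 to 42366594. Besides TFF2, 4 tested genes lie within 250 kb of TFF3. TMPRSS3, which encodes a serine protease, rose from 4.85 to 7.78 CPM (log2 fold change 0.68, edgeR adjusted p = 0.00931). ABCG1, SLC37A1 and RSPH1 did not pass, with log2 fold changes of 0.46, 0.18 and -0.20. Log2 fold changes were thus 5.05 at TFF3, 1.84 at TFF2 and under 0.7 at the other tested genes. TFF1, which lies between TFF2 and TMPRSS3, was under the filter. Its value in the fit without the filter was 2.19, and 1.32 when sgITPR3 replicate 2 was also left out. The differences between neighbours were not tested.

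**Figure D2:**
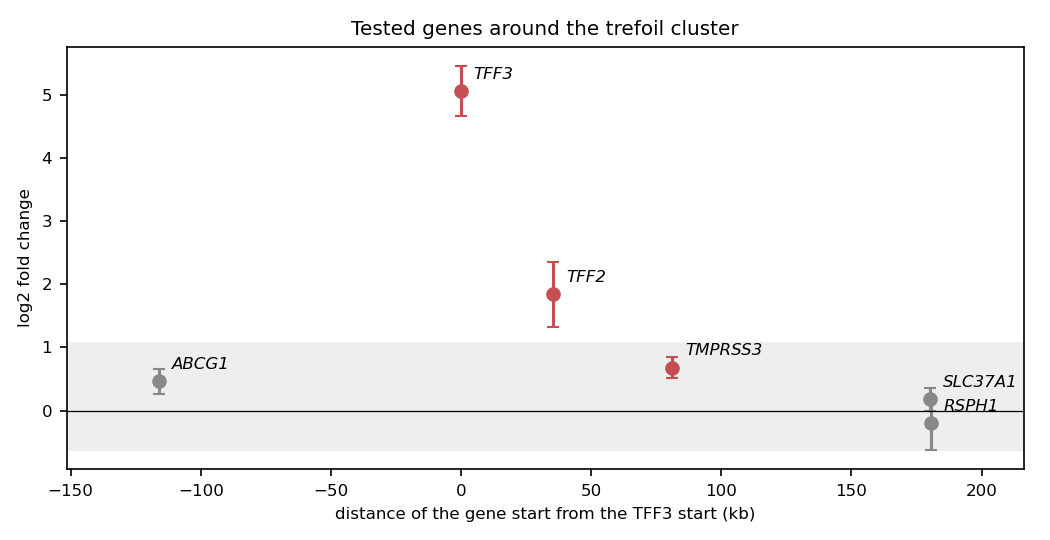
Log2 fold change with SE (vertical axis) of the tested genes within 250 kb of TFF3 against the distance of their start from the TFF3 start in kb, with the 5th to 95th percentile of all tested genes (-0.62 to 1.07) in grey. TFF3 at 5.05 and TFF2 at 1.84 lie above the grey band, and the other 4 genes lie inside it (red passed the test as higher, grey did not pass).

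MUC13, a membrane mucin of the intestinal surface, rose with little spread inside sgITPR3. It was at 1.51, 2.54 and 1.28 CPM in sgCtrl and at 9.72, 9.35 and 7.99 CPM in sgITPR3. The highest sgCtrl value was again that of replicate 2, and it remained far below the lowest sgITPR3 value. The log2 fold change was 2.34 (SE 0.23, 95% interval 1.85 to 2.82, edgeR adjusted p = 4.79e-06), and 0.797% of tested genes had a larger one. The gene spans 124905442 to 124953819 on chromosome 3. Of its 5 tested neighbours within 250 kb, KALRN, which encodes a guanine nucleotide exchange factor, fell (log2 fold change -0.90) and the adjacent ITGB5 and HEG1 did not pass (0.06 and 0.16).

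MUCL1, a small secreted mucin-like glycoprotein known from breast epithelium, rose in all 3 sgITPR3 libraries. It was at 4.84, 2.83 and 4.11 CPM in sgCtrl and at 27.4, 33.5 and 32.3 CPM in sgITPR3. Here sgCtrl replicate 2 was the lowest of its group, opposite to its place for TFF2 and MUC13. The log2 fold change was 2.99 (SE 0.16, 95% interval 2.65 to 3.33, edgeR adjusted p = 1.51e-08), and in the 6 fits without 1 library it stayed between 2.79 and 3.16. MUCL1 lies on chromosome 12 from 54830519 to 54858393, and PPP1R1A, its only tested neighbour within 250 kb, had a log2 fold change of 0.00. The summed CPM of the 10 members was 9.66 to 12.9 in sgCtrl and 48.1 to 59.5 in sgITPR3.

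MUC1, the membrane mucin found on most glandular epithelia, did not pass the test. It was at 5.002, 6.21 and 3.097 CPM in sgCtrl and at 3.67, 3.36 and 3.35 CPM in sgITPR3, so the groups overlapped through sgCtrl replicate 3. The log2 fold change was -0.47 (SE 0.24, 95% interval -0.97 to 0.04, edgeR adjusted p = 0.179), an interval that reaches from a fall by about 1 log2 unit to no change. It passed as lower without sgCtrl replicate 3 (log2 fold change -0.70, edgeR adjusted p = 0.0318) and with ALB as a covariate (-0.85, 0.0339), while without sgCtrl replicate 2 it was -0.23 (0.527). MUC1 lies on chromosome 1 from 155185824 to 155192916. Of the 25 tested genes within 250 kb of it, 7 fell and 0 rose, against 11.9% and 11.6% of all tested genes. Those that fell included the protease gene ADAM15 (-0.86), the ephrin gene EFNA1 (-0.64) and FDPS (-0.41), an enzyme of isoprenoid synthesis. DPM3 (-0.59), which encodes a subunit of dolichol-phosphate mannose synthase, fell as well.

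MUC20, a membrane mucin reported to bind the MET receptor, was close to the detection limit in both groups. It had 12, 7 and 10 counts in sgCtrl and 13, 8 and 21 counts in sgITPR3. Its log2 fold change of 0.33 had a 95% interval of -0.78 to 1.45 (edgeR adjusted p = 0.690), and without sgITPR3 replicate 3 it was -0.20. MUC20, on chromosome 3 from 195720882 to 195741123, overlaps the transcript MUC20-OT1 on the same strand, so reads in the shared stretch cannot be assigned with certainty. MUC20-OT1 itself was at 16.5 ± 1.72 and 16.7 ± 2.06 CPM (mean ± SD, n = 3 libraries each) and did not pass either.

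The promoters of MUC13 and MUCL1, which rose, and of MUC1, which did not pass, are shown because these members differ in response and in base composition. They are the 250 bases before the RefSeq start site in GRCh38.p14, read 5′ to 3′ on the gene's strand. Capitals mark matches, on either strand, to motifs of intestinal and liver factors, named here HNF4 (CAAAGTCCA), FOXA (TGTTTAC), CDX (CAATAAA) and HNF1 (GTTAAT), and to the TATA box (TATAAA) and the GC box (GGGCGG). No motif overlaps another kind in these windows, and neighbouring GC boxes share bases. RefSeq entries were found for MUC1 (the more upstream of its start sites is shown), MUC2, MUC13, MUC17 and MUCL1. For MUC13 and MUCL1, GENCODE places the first start of the gene further upstream, which is not examined here.
MUC13, chr3:124934752-124935001, minus strand: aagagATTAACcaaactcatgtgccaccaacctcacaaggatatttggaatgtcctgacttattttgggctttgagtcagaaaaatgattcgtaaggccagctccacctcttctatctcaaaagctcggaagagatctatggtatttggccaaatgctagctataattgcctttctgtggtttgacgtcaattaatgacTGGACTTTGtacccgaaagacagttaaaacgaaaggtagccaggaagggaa
MUCL1, chr12:54854266-54854515, plus strand: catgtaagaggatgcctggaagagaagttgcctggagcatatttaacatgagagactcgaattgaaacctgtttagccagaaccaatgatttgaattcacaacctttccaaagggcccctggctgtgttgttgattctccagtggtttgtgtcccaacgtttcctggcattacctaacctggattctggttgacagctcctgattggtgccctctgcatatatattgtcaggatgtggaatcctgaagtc
MUC1, chr1:155192916-155193165, minus strand: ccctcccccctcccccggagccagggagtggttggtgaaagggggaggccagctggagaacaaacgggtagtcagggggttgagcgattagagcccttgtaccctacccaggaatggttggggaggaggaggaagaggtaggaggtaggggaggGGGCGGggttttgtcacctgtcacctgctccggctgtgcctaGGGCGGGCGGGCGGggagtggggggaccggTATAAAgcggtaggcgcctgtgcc

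The MUC13 window held the HNF4 motif, in the reverse direction, at -51 to -43 from the start site, and an HNF1 motif at -245 to -240. The HNF4 motif occurs in 0.325% and the HNF1 motif in 6.23% of 35116 promoter windows of the same length. The MUCL1 window held none of the 6 motifs. The MUC1 window held 4 GC boxes between -96 and -41 and a TATA box at -24 to -19, motifs found in 42.6% and 10.7% of windows. FOXA and CDX motifs, present in 2.98% and 3.66% of windows, matched none of the 3 sequences. The G and C content was 41.6% for MUC13, 45.6% for MUCL1 and 66.0% for MUC1, with a median of 58.0% over all windows. A match to these letters is a description, not a binding site.

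The gel-forming mucins were scarcely detected, and their counts came mostly from 1 library. MUC2, the main mucin of the colon (chromosome 11, 1074875 to 1110511), had 0 counts in all sgCtrl libraries and 1, 17 and 0 counts in sgITPR3. Over the group, the sgITPR3 level was 5.12 times a floor of 3 counts over the 3 sgCtrl libraries together (0.0522 CPM). That multiple leaves out the counting error of the sgITPR3 counts, with which the exact 95% interval of the ratio starts at 3.75. With sgITPR3 replicate 2 left out, 1 count against 0 remains and no fold can be given. MUC5AC, the gastric surface mucin (chromosome 11, 1157953 to 1201138), had 0 counts in sgCtrl and 1, 6 and 1 counts in sgITPR3. This was 2.28 times the same floor, and the exact interval of the ratio starts at 1.46, so 2.28 is not a lower bound. Its summed sgITPR3 level of 0.119 CPM is below the level of 3 counts in a single library, and 2 counts against 0 remain without replicate 2. MUC17, a brush border mucin (chromosome 7, 101020072 to 101058745), had 1 count in the 6 libraries, again in sgITPR3 replicate 2. Exact two-sided permutation tests of the CPM gave p = 0.4 for MUC2, 0.1 for MUC5AC and 1 for MUC17.

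In an edgeR fit without the low-count filter all 10 members could be tested. Of these, 6 were called higher, against 13.5% of the 30264 genes in that fit called in either direction. The additional calls were TFF1 (adjusted p = 0.0312) and MUC2 (adjusted p = 0.0174), while MUC5AC and MUC17 did not pass (0.183 and 0.649). Without both the filter and sgITPR3 replicate 2, the calls of TFF1 and MUC2 ended (adjusted p = 0.618 and 0.723) and the other 4 held.

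Several other scarce genes of colon mucosa and goblet cells were counted mainly in sgITPR3 replicate 2, and others were not. Of 20 such genes, members included, that were under the filter and reached 5 counts in some library, 14 had their highest count there and 6 elsewhere. AGR2, a disulphide isomerase needed for MUC2 folding, had 58 counts there and 0 to 3 in each other library. ZG16, a lectin of goblet cell granules, had 15 there and 0 elsewhere, and PHGR1, a gene of the gut lining, 38 against 0 to 3. The forkhead gene FOXA3 instead had 18, 17 and 6 counts in sgITPR3 (3, 3 and 3 in sgCtrl). The keratin gene KRT20 had 9, 5 and 0 in sgITPR3 (0, 1 and 0 in sgCtrl). GPA33, encoding a gut surface antigen, had 10, 6 and 2 in sgITPR3 and 4, 9 and 4 in sgCtrl, so its groups overlapped. FABP1, a fatty acid binding protein of gut and liver that passed the filter, was highest in sgITPR3 replicate 1 (316, 221 and 121 counts). SLC26A3, a chloride transporter of the colon, had 23 counts in sgITPR3 replicate 3 and at most 2 elsewhere. Among the 17 genes found almost only in sgITPR3 replicate 2 were MUC2, ZG16, CEACAM5 and CEACAM6 of the fixed lists. OLFM4, PLA2G2A and REG4 were also among them, and were picked out after their counts were seen. REG4, OLFM4 and PLA2G2A had 15, 20 and 15 counts. The 17 genes together held 220 counts of the 23943797 in that library. Counts from cells of that tumour and counts from another source cannot be told apart in this table, which bears on what the MUC2 and TFF1 values of replicate 2 mean. TFF3 was also highest there, with 237 counts against 123 and 124, or 49.0% of the sgITPR3 counts, and its ratio of summed levels was 27.8 without that library. MUC13 had 37.8% of its sgITPR3 counts there, and its ratio was 5.07 with and 4.98 without it.

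**Figure D3:**
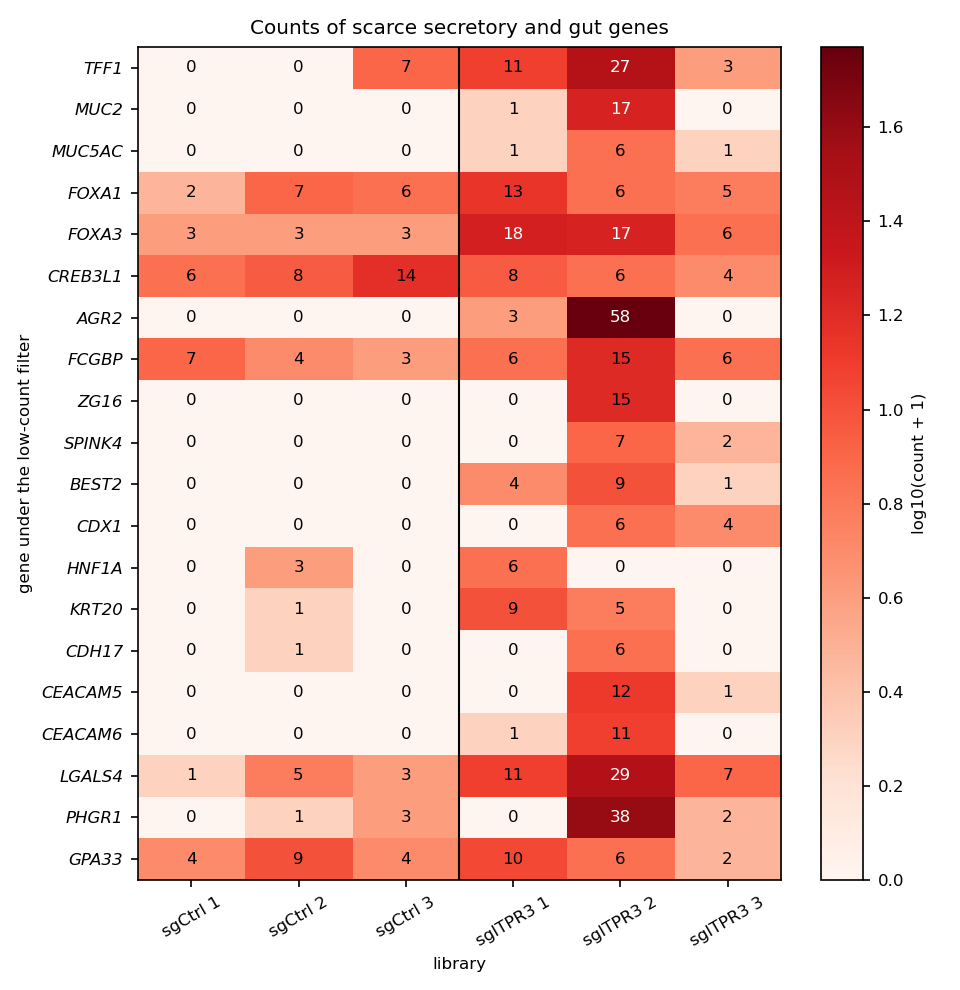
Counts of members, goblet cell genes and intestinal epithelial markers that fell under the low-count filter and reached 5 counts in some library (rows) in the 6 libraries (columns), with colour as log10(count + 1). AGR2, PHGR1, LGALS4, TFF1 and MUC2 have their highest counts (58, 38, 29, 27 and 17) in sgITPR3 replicate 2.

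The wider mucin family did not move as a block. Of 21 further mucin and mucin-like genes, antisense and overlapping transcripts included, 10 were tested. Of these, 2 rose, 1 fell and 7 did not pass (30% called, against 23.5% of all tested genes). The median log2 fold change was 0.24. PARM1, a mucin-like membrane protein first known from prostate, rose from 2.10, 2.29 and 1.71 CPM to 15.8, 19.4 and 13.0 CPM, a log2 fold change of 2.98 (SE 0.19, adjusted p = 5.76e-08 in edgeR). This is close in size to the change of MUCL1, and its groups did not overlap. MUC21, a membrane mucin also called epiglycanin, went the other way, from 36.1, 46.2 and 31.9 CPM to 13.1, 9.67 and 9.02 CPM, a log2 fold change of -1.84 (SE 0.15, adjusted p = 8.90e-07 in edgeR), or 3.58-fold lower. It lies on chromosome 6 from 30983718 to 30989903, the chromosome that also carries ITPR3 (33620365 to 33696574). The mucin-like gene MUCL3, nearer to MUC21 (30934523 to 30954221), did not pass (log2 fold change 0.50, edgeR adjusted p = 0.298). A link between position and the fall of MUC21 was not tested. MCAM, an adhesion molecule also known as a mucin, rose from 9.25 ± 0.415 to 12.5 ± 2.27 CPM (log2 fold change 0.43, edgeR adjusted p = 0.0401). The large membrane mucins MUC16 and MUC12 did not pass, with means of 34.2 and 34.8 CPM for MUC16 and 7.36 and 7.63 CPM for MUC12 in sgCtrl and sgITPR3. Of the genes beside MUC2 and MUC5AC on chromosome 11, MUC5B and MUC6 had at most 3 and 5 counts in any library.

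**Figure D4:**
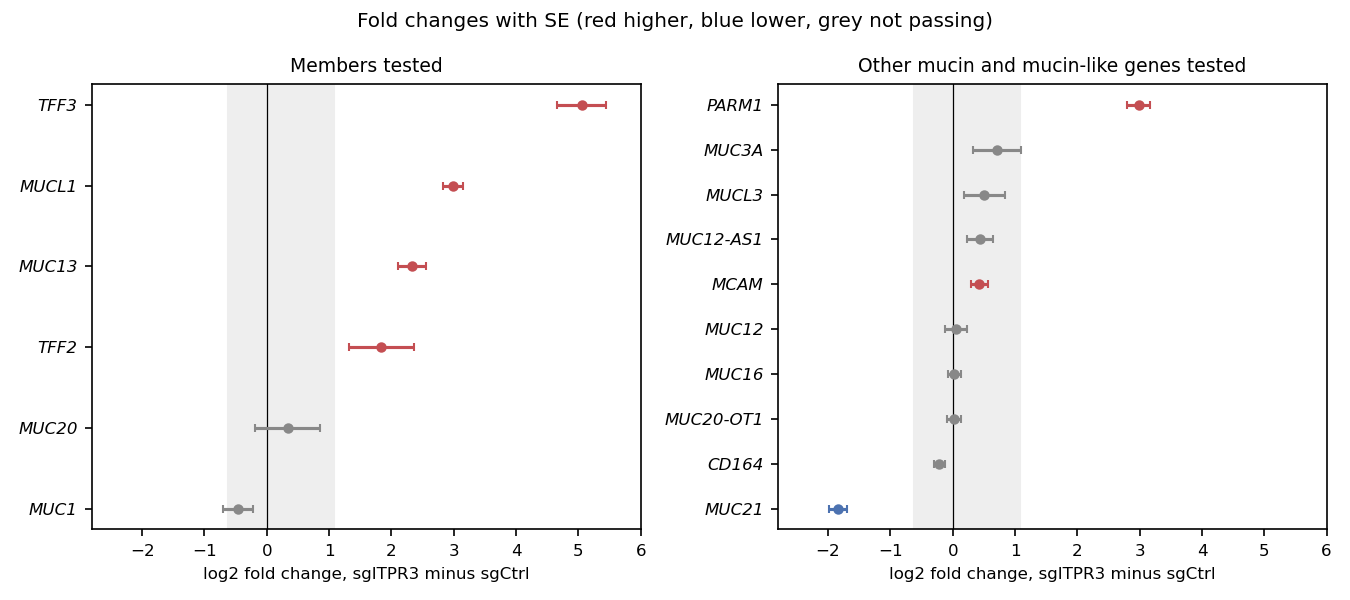
Log2 fold change of sgITPR3 minus sgCtrl with SE for the 6 tested members (left) and the 10 other tested mucin and mucin-like genes (right), with the 5th to 95th percentile of all tested genes (-0.62 to 1.07) in grey. TFF3, MUCL1, MUC13, TFF2 and PARM1 lie above the grey band and MUC21 below it (red higher, blue lower, grey points not passing).

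The goblet cell programme was tested next through a list of its regulators and cargo. Of 25 listed genes 8 were tested, 2 rose, 1 fell and 5 did not pass (37.5% called, against 23.5% of all tested genes). The median log2 fold change was -0.09. Among regulators of the secretory and goblet fates, ATOH1 and SPDEF had at most 2 counts in any library, while GFI1 was at 3.61 ± 0.480 and 2.59 ± 0.845 CPM (n = 3 libraries each) and did not pass. The secreted goblet cell products CLCA1 and ITLN1 had 0 counts in all libraries. FOXA2, a forkhead factor of gut and liver, rose from 15.3 ± 1.54 to 39.6 ± 4.36 CPM (log2 fold change 1.37, edgeR adjusted p = 4.79e-07). REP15 (chromosome 12, 27696519 to 27697596), which encodes a Rab15 effector, rose from 10.9 ± 1.35 to 23.7 ± 1.34 CPM, and KLK1, tissue kallikrein, fell from 27.6 ± 3.25 to 19.3 ± 2.85 CPM (n = 3 libraries per group). KLF4, a factor of goblet cell maturation, was at 23.9 and 22.1 CPM and did not pass.

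Genes that build mucin sugars were called about as often as genes in general, 5 of 24 tested (20.8%) against 23.5%. Of the 40 listed, 3 rose, 2 fell and 19 did not pass, with a median log2 fold change of -0.02. The rises were GALNT8 (log2 fold change 0.58, edgeR adjusted p = 0.00344), the sialyltransferase ST3GAL2 (0.30, 0.0335) and the fucosyltransferase FUT4 (0.34, 0.0424). The falls were GALNT18 (-0.65, 5.50e-04) and the sialyltransferase ST6GALNAC4 (-0.70, 7.32e-04). The other tested GALNT genes, GALNT1, GALNT2, GALNT6, GALNT7, GALNT10, GALNT11 and GALNT12, did not pass, with log2 fold changes from -0.10 to 0.09. C1GALT1, which makes the core 1 sugar, and its chaperone C1GALT1C1 did not pass either, at -0.17 and -0.09. The largest fitted changes of the list in each direction also did not pass. They were ST6GALNAC1 at 1.11 (edgeR adjusted p = 0.0549) and GCNT4 at -1.15 (0.0984).

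Of 16 listed receptors and partners of trefoil peptides and membrane mucins, 10 were tested: 2 rose, 3 fell and 5 did not pass. Calls were 50% of those tested, against 23.5% of all tested genes, and the median log2 fold change was 0.08. CXCR4, a chemokine receptor reported to respond to TFF2, rose from 239 ± 11.3 to 311 ± 5.49 CPM (log2 fold change 0.38, edgeR adjusted p = 6.91e-04). LINGO2, reported to bind TFF3, had at most 2 counts in any library. CTNNB1, encoding beta-catenin, which binds the MUC1 tail, rose from 362 ± 10.6 to 500.4 ± 16.9 CPM (edgeR adjusted p = 1.12e-04). The receptor genes EGFR and ERBB3 fell, by 0.49 and 0.46 on the log2 scale, and EZR, encoding the linker ezrin of apical membranes, fell by 0.51 (edgeR adjusted p = 6.94e-04, 0.0207 and 3.82e-04). MET did not pass (log2 fold change -0.30, edgeR adjusted p = 0.0904).

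**Figure D5:**
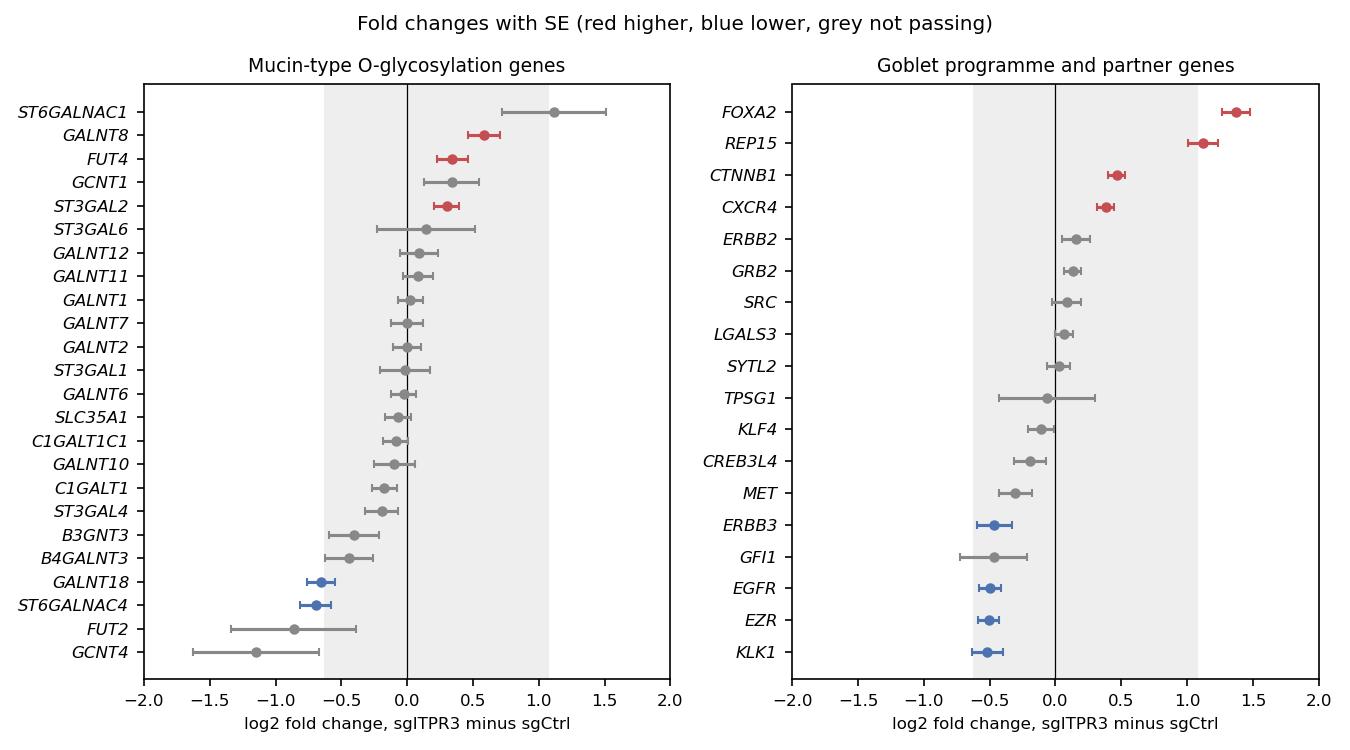
Log2 fold change of sgITPR3 minus sgCtrl with SE for the 24 tested mucin-type O-glycosylation genes (left) and the 18 tested goblet programme and partner genes (right), with the 5th to 95th percentile of all tested genes in grey. FOXA2 and REP15 lie above the grey band at 1.37 and 1.12, and most of the O-glycosylation genes lie inside it (red higher, blue lower, grey points not passing). Of the O-glycosylation genes, ST6GALNAC1 lies above it at 1.11, and GCNT4, FUT2, ST6GALNAC4 and GALNT18 lie below it.

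Genes listed as markers of other cells moved in part with the members, and 23.5% of all tested genes were called. The host liver was that of a mouse, while the genes counted are human. Counts of these lists from SW480 cells and from mouse reads given to human genes cannot be told apart here, and do not measure numbers of cells. In bulk RNA, fewer cells of a type also cannot be told apart from less RNA per cell. The summed level of 13 hepatocyte genes was 94.3, 272 and 69.6 CPM in sgCtrl and 326, 219 and 168 CPM in sgITPR3. The groups overlapped through sgCtrl replicate 2. Of its 8 tested genes 1 rose (APOA1), 1 fell (SERPINA1) and 6 did not pass, with a median log2 fold change of 1.11. The 6 that did not pass, ALB among them, had log2 fold changes from 0.91 (FGA) to 1.37 (FGG). Of 4 tested genes listed for bile duct cells, which are known to make TFF3 and other mucus proteins, 3 fell and 0 rose. KRT7 was among those that fell (log2 fold change -1.96), and CFTR was at 0 in 5 libraries and 3 counts in the sixth. The summed level of the 8 bile duct genes was 309 to 359 CPM in sgCtrl and 273 to 301 CPM in sgITPR3. Most of it was SOX9, at 266 to 312 CPM in sgCtrl and 244 to 266 CPM in sgITPR3, which did not pass. Of 3 tested genes of the gastric surface, 2 fell (CAPN8 and CTSE), and GKN1, GKN2 and CLDN18 had no count. Hormone cell genes rose with the members: 7 of 8 tested were higher, and the summed level of 11 such genes was 37.2 to 49.4 CPM in sgCtrl and 190.0 to 225 CPM in sgITPR3. Of the blood, vessel and stroma lists, HBA1, HBA2 and COL1A1 rose, and the macrophage and vessel lists had 1 and 0 tested genes with no call. The 18 intestinal epithelial markers went both ways, with 4 higher, 3 lower and 2 not passing among 9 tested. The 4 that rose were VIL1, FABP1, the nuclear receptor gene HNF4A and CDX2, with log2 fold changes of 3.52, 2.73, 1.57 and 0.34. FABP1, also a gene of liver, was at 0.914, 3.08 and 0.267 CPM in sgCtrl and 13.6, 8.94 and 6.24 CPM in sgITPR3. Within each group its libraries ranked in the same order as for ALB, and a link was not tested. The 3 that fell were KRT19, KRT8 and EPCAM, with -0.82, -0.39 and -0.32. The part of these shifts in the members' results was not tested. With ALB as a covariate TFF3, MUC13 and MUCL1 kept their calls at log2 fold changes of 4.85, 1.88 and 3.38. In the same fit TFF2 lost its call (1.24, edgeR adjusted p = 0.194) and MUC1 was called lower (-0.85, 0.0339). ALB is 1 gene whose mean also differed between the groups (75.0 and 165 CPM), so this fit cannot separate such shifts from group.

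Over the 6 libraries, the gene of at least 5 CPM whose log2 CPM followed a member most closely was CASP4 for MUCL1 (Pearson r = 0.999), MCF2L for MUC13 (0.998), GALNS for TFF2 (0.996), ARHGEF16 for MUC1 (0.985) and ZC3H15 for MUC20 (0.978). These are descriptions chosen from 10631 or 10632 genes on 6 points that fall into 2 groups. CASP4 and MCF2L rose like the members they followed, with log2 fold changes of 1.84 and 1.85. GALNS, ARHGEF16 and ZC3H15 did not pass.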

How the data were processed

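The values analysed are gene counts as deposited by the authors, 1 column per library. Per the submitters' processing notes, GRCh38, STAR 2.6.0a, featureCounts 1.6.3 and DESeq2 were used. The annotation, strand setting and treatment of mouse or multiply aligned reads were not given in the sources used here, and could affect scarce genes and mucins with repeated sequence. Counts of 3′ tags are not scaled to transcript length, so levels of different genes are not ranked; summed levels of lists are compared between libraries only.

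Symbols were attached to 58876 identifiers, and gene positions are from GENCODE 29. Analysis used R 4.3.3 and edgeR 4.0.16. Genes passed filterByExpr with a minimum count of 10, libraries were scaled by TMM, and the quasi-likelihood F test compared the groups without covariates, with Benjamini-Hochberg adjustment over all 15804 genes tested (threshold 0.05). An SE is the absolute log2 fold change over the square root of F. The procedure was tested on simulated data. The closest replicate libraries differed by 5.93 in chi-square per degree of freedom, so none repeats another. Promoter sequences are from RefSeq (GRCh38.p14).

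Alternatives were RLE scaling, no filter, 1 CPM in 3 libraries, DESeq2 1.42.0, limma-voom (limma 3.58.1), ALB as a covariate, a replicate block and the omission of each library. The joint setting without filter and without sgITPR3 replicate 2, and the rule for genes counted in 1 library, were added after the data were seen. The members, lists and other choices were made with earlier results of these data known. The naming rule takes ITPR3, ALB, all members, up to 6 called genes (or 2 tested) of each list, up to 4 called neighbours per member within 250 kb and the most similar gene of at least 5 CPM. The most similar gene of TFF3 is not reported here. Other genes were named after their values were seen.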

Additional observations from a re-analysis of the deposited data

How the results depend on the processing

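The number of members called was 4 of 6 tested in the reported fit, and 3 to 4 when 1 library was left out. It was 3 of 4 tested with a filter of 1 CPM in 3 libraries, and 6 of 10 without a filter. Over all genes, those settings called 3630 of 14160 and 4091 of 30264, against 3717 of 15804 in the reported fit. An equal number did not always hold the same members. Without sgCtrl replicate 3, and with ALB as a covariate, TFF2 lost its call and MUC1 was called lower, giving 3 higher and 1 lower. TFF3, MUC13 and MUCL1 kept their direction and call in all 14 alternatives run. TFF2 lost its call in 5 of its 13, as given above. MUC1 was called lower in 2 of 14. The log2 fold change of MUC20 ranged from -0.20 to 0.67 when 1 library was left out. Over all genes, 3717 were called in the reported fit, 1982 with ALB as a covariate, and 2331 to 4261 without 1 library, the lowest number without sgITPR3 replicate 2. The cause was not tested. With the replicate number as a replicate block, 4 members and 3877 genes were called. Deviations of same-numbered libraries correlated at -0.03, 0.12 and 0.18 over 10632 genes, and not every library correlated best with its own number, so the numbers were not taken as pairs. Members under the filter are limited by depth: at these totals a level under 0.121 to 0.161 CPM is below 3 counts.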
